A study of Homo sapiens with 6 samples.

Results

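The genes described here build and load MHC class I, the complex with which a cell shows fragments of its own proteins at its surface. They are 9 genes, B2M, HLA-E, HLA-F, TAP1, TAP2, TAPBP, NLRC5, ERAP1 and ERAP2, taken as a pathway, and every probe set that the array annotation gives to 1 of these symbols alone was taken. A probe set is a group of short array probes summarised to 1 value. This gave 28 probe sets for the 9 genes, out of 54675 probe sets on the array and 19775 genes measured on it. Of the 28 probe sets, 19 reached a mean log2 value of 4 over all arrays and were tested.

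The 6 samples were subcutaneous xenografts of U87-EV, 1 array each, with 3 arrays labelled bevacizumab treated and 3 labelled control. U87 comes from a human glioblastoma and is an established line, and the labels do not say what EV stands for. As a check of the label, on genes chosen after the data were seen, VIM and CD44 averaged 15.17 and 14.06 in bevacizumab tumours and 15.05 and 13.95 in control tumours on the log2 scale. The neural progenitor gene NES fell, with 9.68 in bevacizumab tumours and 10.86 in control tumours (limma adjusted p = 0.00725), and SOX2 was near the filter at 3.89 in bevacizumab tumours and 3.08 in control tumours. The glial genes GFAP, S100B and OLIG2 were under 4 on every array. The hosts were female BALB/c SCID mice of 6 to 8 weeks, which lack working T and B cells but keep natural killer and myeloid cells, and the tumour cells were implanted with Matrigel. Bevacizumab, an antibody against human vascular endothelial growth factor A, was injected intraperitoneally at 10 mg/kg every 3 days, and control mice received saline. Dosing began at a tumour volume of 150 to 200 mm3 and ended at a diameter of about 15 to 30 mm, and each group began with 5 mice. Because no label ties an array to its own mouse, each p-value speaks only of variation among arrays, some of which may be technical. In tumour pieces such as these, fewer cells of a type and less RNA per cell cannot be told apart.

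In the class I pathway the proteasome cuts proteins into peptides, the TAP1 and TAP2 transporter carries them into the endoplasmic reticulum, and the aminopeptidases ERAP1 and ERAP2 trim them to length. TAPBP encodes tapasin, which holds an empty class I chain beside the transporter until a peptide fits. Each complete complex pairs a heavy chain, such as HLA-E or HLA-F, with the light chain beta-2 microglobulin, encoded by B2M. HLA-E presents mainly leader peptides of other class I chains and is read by an inhibitory receptor of natural killer cells. NLRC5 is the transactivator of class I genes, and interferons raise most genes of the pathway.

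The start regions of these genes are shown because interferon is a known inducer of the pathway and the interferon response element binds interferon regulatory factors. RefSeq windows of 300 bases (GRCh38.p14) were matched for 7 of the 9 genes, in 10 windows, each running from 250 bases before an annotated start to 50 after it. The motif core, GAAA, any 2 bases and GAAA again, was sought on both strands, overlapping matches included. It was found in a window of all 7 genes and in 7 of the 10 windows, against 1255 of all 35116 windows, or 3.57%. Counted by gene, 4.38% of 27305 genes had the motif in a window. The stretches around the matches are given 5′ to 3′ on the strand of the gene, with the matches in capitals.
HLA-F (chr6:29723258-29723307, plus strand): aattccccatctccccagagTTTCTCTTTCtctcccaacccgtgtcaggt
TAPBP (chr6:33314063-33314118, minus strand): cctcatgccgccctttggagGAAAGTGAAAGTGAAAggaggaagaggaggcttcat
B2M (chr15:44711353-44711408, plus strand): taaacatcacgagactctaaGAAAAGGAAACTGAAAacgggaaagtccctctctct
TAP1 (chr6:32853803-32853858, minus strand): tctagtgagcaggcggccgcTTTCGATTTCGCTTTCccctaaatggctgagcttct
TAP2 (chr6:32838768-32838817, minus strand): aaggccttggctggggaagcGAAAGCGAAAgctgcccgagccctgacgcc
ERAP1 (chr5:96807914-96807963, minus strand): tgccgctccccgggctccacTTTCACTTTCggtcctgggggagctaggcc
ERAP2 (chr5:96876450-96876499, plus strand): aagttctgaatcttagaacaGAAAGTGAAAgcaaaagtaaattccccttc
The matches in HLA-F, TAP1 and ERAP1 lie on the opposite strand and read as TTTC repeats. B2M, TAP1 and TAPBP each held 2 overlapping matches. The matches began 20 and 14 bases before the start in TAPBP, 58 before it in TAP2, 30 before it in ERAP2, 134 and 128 before it in TAP1, 144 and 138 before it in B2M and 156 before it in HLA-F. In ERAP1 the match began 3 bases into the transcript. A match describes letters and not binding, and the motif was present both in genes that rose and in genes that did not pass the test.

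Whole windows are given for TAPBP, which rose, and for TAP1, which did not pass the test, with the same motif in capitals.
TAPBP (chr6:33314029-33314328, minus strand): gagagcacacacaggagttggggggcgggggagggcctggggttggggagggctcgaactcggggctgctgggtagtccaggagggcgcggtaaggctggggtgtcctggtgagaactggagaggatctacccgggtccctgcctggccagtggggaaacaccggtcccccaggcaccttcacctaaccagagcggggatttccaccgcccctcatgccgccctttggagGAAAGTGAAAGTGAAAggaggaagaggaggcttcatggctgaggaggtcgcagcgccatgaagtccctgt
TAP1 (chr6:32853655-32853954, minus strand): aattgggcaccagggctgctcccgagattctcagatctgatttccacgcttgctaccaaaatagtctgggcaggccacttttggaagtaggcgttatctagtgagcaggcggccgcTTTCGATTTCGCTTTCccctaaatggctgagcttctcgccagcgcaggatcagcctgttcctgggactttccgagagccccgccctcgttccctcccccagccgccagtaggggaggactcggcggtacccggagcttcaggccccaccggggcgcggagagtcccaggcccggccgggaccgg
The hypoxia element core ACGTG, present in 21.4% of all windows, was found in 0 of the 10 windows of these genes on either strand. The CCAAT box was in 4 of the 10, against 34.6% of all windows, and TGACG, the core of the cyclic AMP response element, in 2 of the 10, against 24.6%. These counts say only which letters are in these windows.

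The comparison of bevacizumab with control tumours asks how blocking VEGF changes expression in a growing tumour. Values are the deposited log2 expression values, differences are bevacizumab minus control on that log2 scale, and a gene is said to have risen or fallen where limma's adjusted p was under 0.05 over all 10233 genes tested, with the brightest probe set standing for each gene. Of the 9 genes 3 rose, HLA-E, HLA-F and TAPBP, and 0 fell. At this threshold 19.1% of all genes tested changed, with 930 higher and 1020 lower. Of all genes tested 9.09% rose, against 33.3% of these 9. With 9 genes that share is not read as particular to the pathway. Their median difference was 0.21, beside -0.01 over all genes tested.

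Signs of RNA quality were read on the same arrays, and each was also entered in the fit as a covariate. The difference between the 3′ and 5′ control probe sets of ACTB was 1.81 ± 0.16 in bevacizumab tumours and 1.38 ± 0.26 in control tumours (SD, n = 3 each; exact permutation p = 0.2). For GAPDH it was -0.02 ± 0.03 in bevacizumab tumours and -0.12 ± 0.02 in control tumours (SD, n = 3 each; exact permutation p = 0.1, the smallest that 3 against 3 can give). When limma was given the ACTB difference as a covariate, 24 genes of the whole array passed and 0 of these 9, with 3 of the 9 at an unadjusted p under 0.05. The differences in that fit were 0.73 for HLA-E, 0.76 for HLA-F and 1.14 for TAPBP, each larger than without the covariate. With the GAPDH difference, which separates the groups, limma called 0 genes, with 1428 genes and 1 of these 9 at an unadjusted p under 0.05. That gene was ERAP1, with a difference of 0.72, and not HLA-E, HLA-F or TAPBP. The differences with GAPDH were 0.48 for HLA-E, 0.25 for HLA-F and 0.19 for TAPBP, each smaller than without the covariate. With 18S ribosomal signal 693 passed, among them HLA-E alone of the 9. The differences with 18S were also smaller, at 0.62 for HLA-E, 0.52 for HLA-F and 0.72 for TAPBP. No array date or batch is given in the sources used here, so none was tested.

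**Figure D1:**
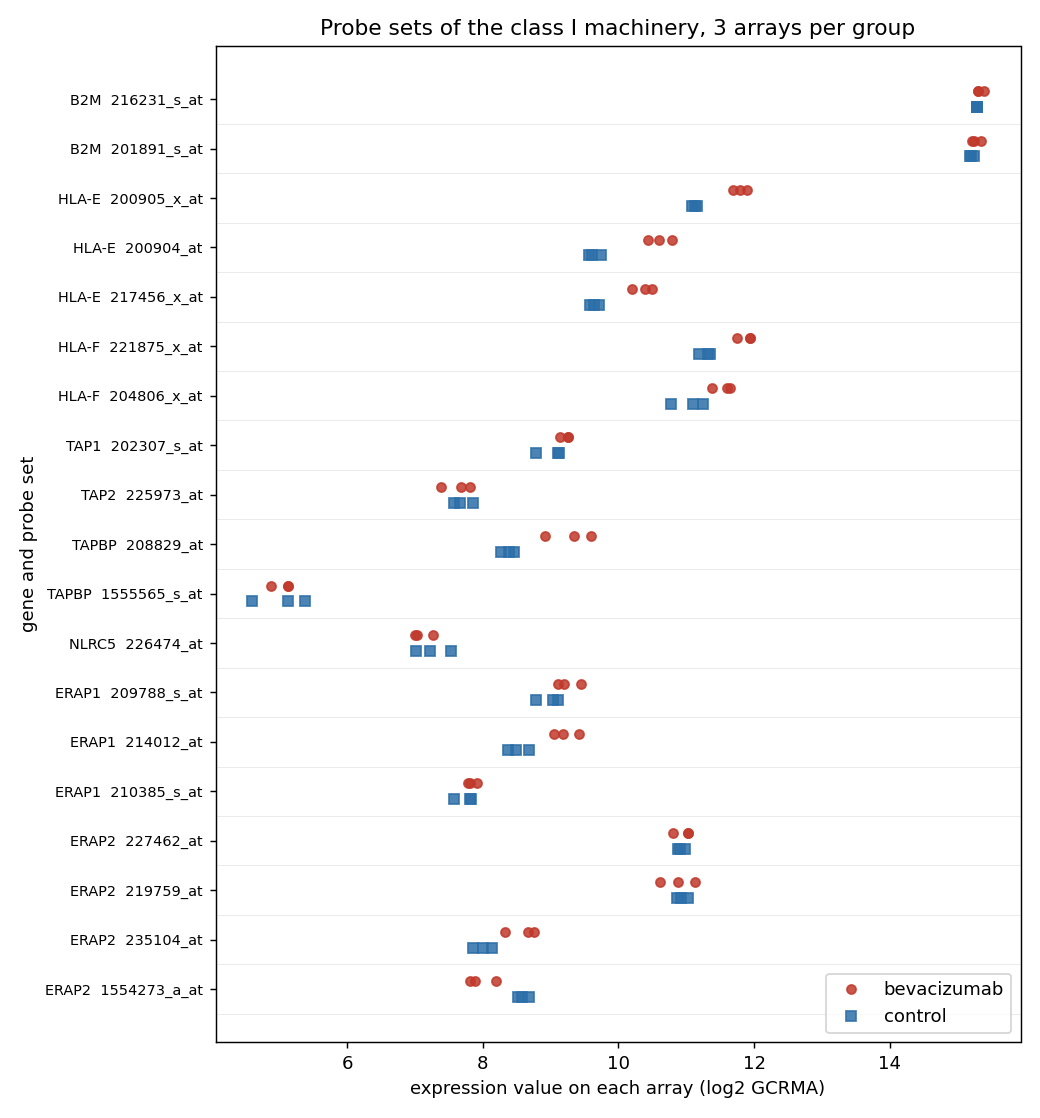
Expression values (log2 GCRMA) of the 19 tested probe sets on each array, with bevacizumab arrays as red circles above control arrays as blue squares. HLA-E, HLA-F 221875_x_at and TAPBP 208829_at show separate groups with bevacizumab to the right, B2M sits near 15.3 in both groups, and ERAP2 1554273_a_at is the 1 probe set with bevacizumab to the left of every control.

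HLA-E was higher on all 3 of its probe sets. The probe set that stands for the gene, 200905_x_at, read 11.69, 11.90 and 11.79 on the bevacizumab arrays, against 11.15, 11.13 and 11.09 on the control arrays. Every bevacizumab value lay above every control, and the mean difference was 0.67 (SE 0.09, limma adjusted p = 0.00758), or 1.59-fold. On 200904_at the bevacizumab arrays read 10.44, 10.79 and 10.59, against 9.75, 9.60 and 9.56 on the control arrays. This probe set, whose name lacks the mark for probes shared with other transcripts, gave a larger difference of 0.97 (95% interval 0.68 to 1.27, adjusted p = 0.00875 over 18475 probe sets). The difference on 217456_x_at was 0.72. The call of HLA-E was kept without any 1 of the 6 arrays, with differences of 0.62 to 0.72.

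HLA-F, a heavy chain that can reach the surface without peptide and is read by natural killer receptors, was close to HLA-E in size. On 221875_x_at the bevacizumab arrays read 11.74, 11.94 and 11.94, against 11.35, 11.32 and 11.18 on the control arrays. The groups were apart and the difference was 0.59 (SE 0.10, limma adjusted p = 0.0139), or 1.51-fold. On 204806_x_at the values were 11.39, 11.60 and 11.65 in bevacizumab tumours and 11.25, 11.10 and 10.78 in control tumours. The groups were apart there too, with a difference of 0.50 that did not pass (adjusted p = 0.0763 over probe sets). The remaining probe set, 221978_at, lay between 3.01 and 3.28 on every array and was not tested. The call of HLA-F was lost without control 1 (adjusted p = 0.0523) or control 2 (adjusted p = 0.0559, within 0.00826 to 0.593 across alternatives).

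Both bright HLA-F probe sets carry the suffix _x_at, with which the array maker marks probes that can bind other transcripts, and so do 2 of the 3 of HLA-E. The class I chains are close in sequence, so signal of one can be read on the probes of another. Of the other class I chains analysed, HLA-B rose by 0.68 (limma adjusted p = 0.00700), HLA-C by 0.59 (adjusted p = 0.0157) and HLA-G by 0.61 (adjusted p = 0.0204), each on all of its probe sets. All 11 probe sets of these 3 genes end in _x_at, their differences ran from 0.53 to 0.78, and all 11 passed when probe sets were tested singly. How far the 5 chains moved separately was not tested. With probe sets of that suffix left out, HLA-E was measured on 200904_at alone (0.97, adjusted p = 0.00619), and HLA-F had none bright enough to test. HLA-B, HLA-C and HLA-G had no probe set left. HFE, a class I-like chain of iron control, differed by 0.01 (adjusted p = 0.935) and MR1, which presents vitamin metabolites, by -0.32 (adjusted p = 0.0802). The other MR1 probe sets differed by -0.283, 0.336 and 1.049, and none of them passed. The count of 3 chains higher dropped to 1 without any 1 of the controls. Over all genes tested 9.09% rose.

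TAPBP showed the largest difference of the 9 genes. On 208829_at it read 8.91, 9.59 and 9.35 in bevacizumab tumours, against 8.46, 8.39 and 8.26 in control tumours. The groups were apart, the bevacizumab arrays were the more scattered (SD 0.35, against 0.10 in controls), and the difference was 0.91 (SE 0.18, limma adjusted p = 0.0226), or 1.88-fold. A second probe set, 1555565_s_at, was dimmer with overlapping groups, at 5.13, 4.87 and 5.13 in bevacizumab tumours and 5.37, 5.13 and 4.60 in control tumours (difference 0.01, 95% interval -0.51 to 0.53). The last, 210294_at, lay under 4 on every array. The mean of its 3 probe sets differed by 0.35 and missed the threshold (adjusted p = 0.104, within 0.00971 to 0.835 across alternatives). The call was kept without bevacizumab 1 (difference 1.1003) and lost without any other single array, with differences of 0.76 to 0.96 there.

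B2M did not pass the test. On 216231_s_at it read 15.39, 15.31 and 15.30 in bevacizumab tumours, against 15.30, 15.29 and 15.29 in control tumours. The lowest bevacizumab value lay just above the highest control, and the difference was 0.04 (95% interval -0.14 to 0.23, limma adjusted p = 0.725). On 201891_s_at the bevacizumab arrays read 15.35, 15.21 and 15.24, against 15.20, 15.25 and 15.18 on the control arrays, and the groups overlapped. The mean of 216231_s_at was above that of 99.96% of all probe sets, with 20 brighter and a highest value of 15.99 in the table, and whether values this bright are compressed was not tested. The remaining probe set, 232311_at, was under 4 throughout.

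The transporter genes did not pass either. TAP1, on its single probe set, read 9.25, 9.14 and 9.26 in bevacizumab tumours, against 8.78, 9.11 and 9.13 in control tumours. The groups did not overlap, by a narrow gap and with control 1 the lowest, and the difference was 0.21 (95% interval -0.08 to 0.50, limma adjusted p = 0.262). That interval allows anything from 0.944-fold to 1.42-fold. Groups failed to overlap in 5 of the 9 genes and in 41.0% of all genes tested. TAP2 read 7.81, 7.38 and 7.68 on 225973_at in bevacizumab tumours, against 7.57, 7.67 and 7.85 in control tumours. The groups overlapped, and the difference was -0.07 (95% interval -0.42 to 0.27, adjusted p = 0.733), a sign that turned with some settings. The other 3 TAP2 probe sets were under 4 on every array.

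NLRC5, the transactivator, was measured on 1 probe set with overlapping groups. Its values were 7.268, 6.996 and 7.029 in bevacizumab tumours and 7.214, 7.009 and 7.538 in control tumours. The difference was -0.16 (95% interval -0.54 to 0.23, limma adjusted p = 0.516), which allows 0.686-fold to 1.17-fold. Whether its difference departs from that of HLA-E or HLA-F was not tested.

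**Figure D2:**
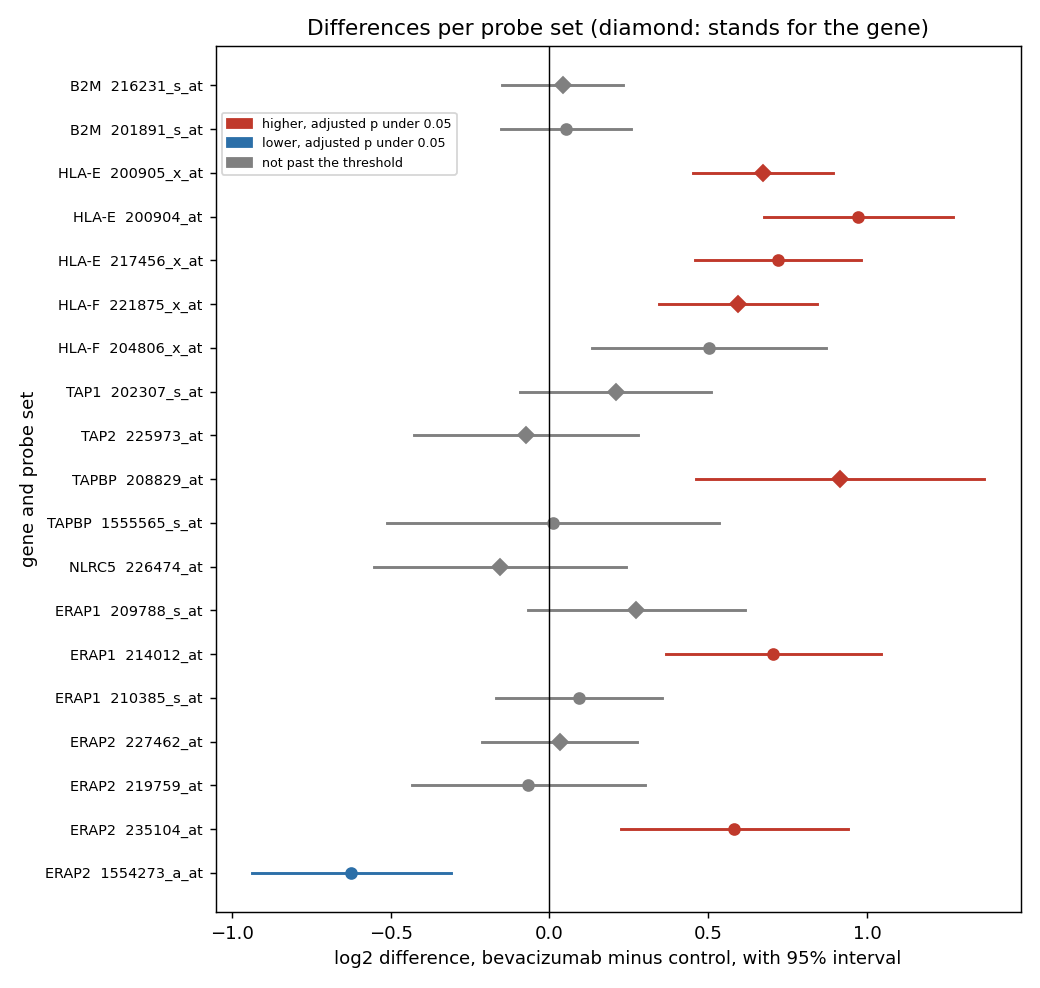
Log2 difference between bevacizumab and control tumours for each tested probe set, with limma's 95% interval; diamonds mark the probe set that stands for the gene. The 3 HLA-E probe sets lie between 0.67 and 0.97, TAPBP's bright probe set at 0.91 and its dim one at 0.01, and the ERAP2 probe sets spread from -0.62 to 0.58.

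Tested singly, 7 of the 19 probe sets were higher, 1 was lower and 11 did not pass, or 42.1% past the threshold beside 15.4% of the 18475 probe sets tested. Probe sets of 1 gene share its locus and the same arrays and are not independent, and 3 of the 7 belong to HLA-E. The 9 probe sets under the filter lay between 2.23 and 3.28 on every array, with mean differences of at most 0.17 in size.

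The trimming enzymes differed between their own probe sets. For ERAP1, the brightest probe set, 209788_s_at, read 9.45, 9.19 and 9.11 in bevacizumab tumours, against 9.12, 8.79 and 9.03 in control tumours. The groups overlapped slightly, and the difference of 0.27 did not pass (95% interval -0.06 to 0.61, limma adjusted p = 0.206). On 214012_at the bevacizumab arrays read 9.18, 9.05 and 9.42, against 8.49, 8.37 and 8.68 on the control arrays. Here the groups were apart and the probe set rose by 0.70 (SE 0.14, adjusted p = 0.0259 over probe sets). That call was lost in 8 of 16 alternatives, among them the fits without bevacizumab 1, bevacizumab 3, control 1 or control 2, with differences of 0.60 to 0.79 over the 6 fits that left out 1 array. On 210385_s_at the difference was 0.09, with overlapping groups. The value of 214012_at minus 209788_s_at, taken within each array, was -0.04 ± 0.31 in bevacizumab tumours and -0.47 ± 0.14 in control tumours (SD, n = 3 each). The difference was 0.43 (exact permutation p = 0.1, the smallest possible), so the mean levels of these probe sets lay closer together in bevacizumab tumours. This contrast was chosen after the values were seen.

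ERAP2 did not pass as a gene, and 2 of its dimmer probe sets moved in opposite directions. Neither of the 2 bright probe sets passed: 227462_at read 11.03, 11.02 and 10.80 in bevacizumab tumours and 10.98, 10.88 and 10.90 in control tumours (difference 0.03, 95% interval -0.21 to 0.27, limma adjusted p = 0.838), and 219759_at differed by -0.07. In contrast, 235104_at read 8.32, 8.75 and 8.67 in bevacizumab tumours, against 8.00, 7.85 and 8.13 in control tumours. It rose by 0.58 (SE 0.15, adjusted p = 0.0483 over probe sets). The probe set 1554273_a_at read 8.20, 7.89 and 7.81 in bevacizumab tumours, against 8.52, 8.68 and 8.57 in control tumours. It fell by 0.62 (SE 0.13, adjusted p = 0.0287 over probe sets), with every bevacizumab array under every control.

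The contrast between 1554273_a_at and 235104_at, taken within each array, was -0.61 ± 0.42 in bevacizumab tumours and 0.59 ± 0.20 in control tumours (SD, n = 3 each; difference -1.21, exact permutation p = 0.1, the smallest possible). These 2 probe sets were picked after their values were seen. Their calls were each lost in 10 of 16 alternatives, among them the fits without any 1 array other than bevacizumab 1. The direction held in all 6 fits that left out 1 array. Which transcript forms each probe set reads is not given in the files. In RefSeq the span of ERAP1 covers ERAP2, which lies on the opposite strand.

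**Figure D3:**
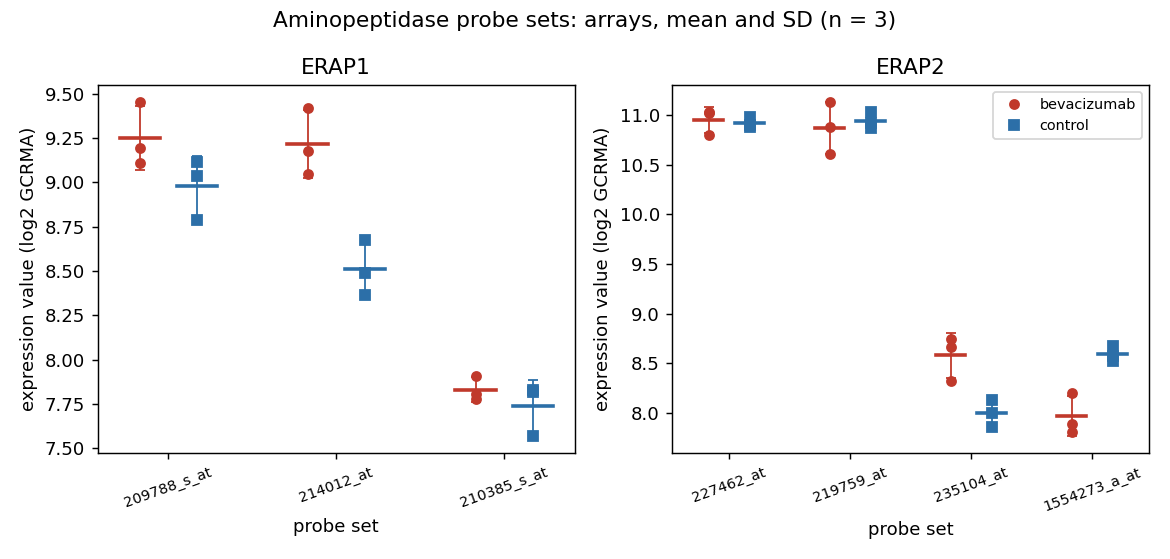
Expression values (log2 GCRMA) of the tested ERAP1 and ERAP2 probe sets, with each array as a point, the group mean as a bar and the SD as a whisker (n = 3), bevacizumab left of control. ERAP1 214012_at and ERAP2 235104_at are higher on all bevacizumab arrays, ERAP2 1554273_a_at is lower on all of them, and the other 4 probe sets overlap.

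Across the 6 arrays HLA-E, HLA-F and TAPBP ran closely together, with Pearson r of 0.987 between HLA-E and HLA-F, 0.969 between HLA-E and TAPBP and 0.975 between HLA-F and TAPBP. TAP2 and NLRC5 correlated with each other at 0.704 and with HLA-E at -0.404 and -0.499. These values describe 6 arrays that share 2 treatment groups, and they carry the treatment difference. Among all genes tested, the 3 most like HLA-E were TNFRSF11B, which encodes osteoprotegerin, the complement protease gene C1S and HEG1, each at 0.997. Those most like TAPBP were the collagen hydroxylase gene PLOD1, the Golgi calcium-binding protein gene NUCB1 and FKBP9, at 0.998, 0.997 and 0.997, and those most like HLA-F were PRR16, SIMC1 and the Wnt receptor gene FZD7. All 9 of these genes rose, by 0.38 for SIMC1 up to 4.70 for TNFRSF11B, with C1S higher by 2.68 and PLOD1 by 1.28. Over the whole array 9.09% of genes tested rose. For TAP1, TAP2, NLRC5, ERAP1, ERAP2 and B2M none of the 3 most alike genes passed the test. Both results follow largely from picking genes by likeness on the same arrays, and neither is separate support. The nearest to TAP1 were ELMOD2, GPSM1 and PPP4R4 and to TAP2 RDH11, SKIC3 and GTF2IRD2. For NLRC5 they were LIN7C, SELENOI and FARP2, for ERAP1 SEC63, SERTAD3 and MILR1, for ERAP2 CD63, MKLN1 and TRIM33 and for B2M SLC12A4, RNF169 and SPATA24.

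Around tapasin, PDIA3, the oxidoreductase ERp57 that is bonded to it in the loading complex, rose by 0.42 (limma adjusted p = 0.0311). TAPBPL, a tapasin relative that edits peptides, differed by 0.51 and did not pass (adjusted p = 0.0869), and the chaperone genes CALR and CANX differed by 0.13 and 0.12. Of these 4 partners 1 rose, 0 fell and 3 did not pass, with a median of 0.28. Among all genes tested 9.09% rose, and the median was -0.01. The call of PDIA3 was lost without any 1 array, and its other tested probe sets differed by 0.25 and -0.15.

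Of 4 immunoproteasome and activator genes tested 1 fell, 0 rose and 3 did not pass, with a median of -0.15. Over the whole array 1020 of 10233 genes tested fell. PSMB9, an inducible catalytic subunit whose gene neighbours TAP1 in RefSeq, fell by 0.59 (limma adjusted p = 0.0450), a call lost without any 1 array other than bevacizumab 1. TAP1 itself differed by 0.21. PSMB8 differed by -0.13 and PSME1, of the proteasome activator, by -0.17, both with bevacizumab arrays under every control, and PSMB10 by -0.03. Such a lack of overlap, in either direction, was seen in 41.0% of all genes tested. Of 3 constitutive catalytic subunits PSMB6 fell by 0.54 (adjusted p = 0.0228) and PSMB5 by 0.48 (adjusted p = 0.0296), while PSMB7 differed by -0.32 (adjusted p = 0.0570). Without control 1, 2 or 3 neither of these 2 calls held, and without any 1 bevacizumab array 1 did.

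Among 7 other aminopeptidases and peptide-trimming enzymes 1 passed, ENPEP, a cell-surface aminopeptidase that was under 4 on each bevacizumab array and was at least 9.85-fold lower. At this threshold 19.1% of all genes tested passed, in either direction. TPP2 and LAP3, which act on peptides in the cytosol, differed by -0.56 (limma adjusted p = 0.123) and -0.28 (adjusted p = 0.122). Of the other TPP2 probe sets, 1 passed as lower when tested singly (-0.91, adjusted p = 0.0366 over probe sets) and 1 differed by -0.63.

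Of the factors that act on class I promoters 1 of 9 tested rose, 0 fell and 8 did not pass, with a median of -0.03. Among all genes tested 9.09% rose. IRF1, an interferon-induced activator, rose by 0.65 on its brightest probe set (limma adjusted p = 0.0443) and by 0.95 on its other, and the first call was lost without any 1 array. RFX5, which binds the X box, and NFYB, which binds the CCAAT box, differed by -0.15 and -0.33 on their brightest probe sets. Other probe sets of both passed as lower when tested singly, 1 of RFX5 with a difference of -0.70 (adjusted p = 0.0102 over probe sets) and 1 of NFYB with -0.84 (adjusted p = 0.0102), so the count of 0 that fell rests on the choice of the brightest. CIITA, the class II transactivator, was under the filter. Of 7 interferon receptor and kinase genes 3 rose, IFNAR1 by 0.56, IFNGR1 by 0.51 and JAK1 by 0.48 (limma adjusted p = 0.0345, 0.0413 and 0.0410), and 0 fell. TYK2 and JAK2 differed by 0.24 and 0.09. The other tested probe sets of these 3 genes differed less, by 0.29 for IFNAR1, 0.12 for IFNGR1 and -0.02 and 0.00 for JAK1. Without bevacizumab 2, bevacizumab 3, control 1 or control 2 none of these 3 calls held, and without control 3 there was 1.

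Of 18 interferon-induced genes tested outside the pathway 4 fell, 0 rose and 14 did not pass, and the median was -0.55. Over all 10233 genes tested 1020 fell and 930 rose, and the median was -0.01. IFIT1 fell by 1.27 (limma adjusted p = 0.0153), IFI44 by 0.94, ISG15 by 0.78 and RIGI by 0.53. IFI44L differed by -1.04 (adjusted p = 0.0529) and GBP1, induced above all by interferon gamma, by -0.69 (adjusted p = 0.0589), with other GBP1 probe sets at -0.06 and -0.20. Of the 17 genes of this list with a RefSeq window, 12 held the interferon response core, as did all 7 of the 9 pathway genes with one. Of the other class I chains it was in 0 of 5 with a window. Forms of the element that depart from this core were not sought. Without control 1 or control 3 there was 1 gene of the interferon-induced list lower, and without control 2 there were 2. Of 3 stress ligands tested, MICA, MICB and ULBP2, limma called 0, and 0 had an unadjusted p under 0.05.

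**Figure D4:**
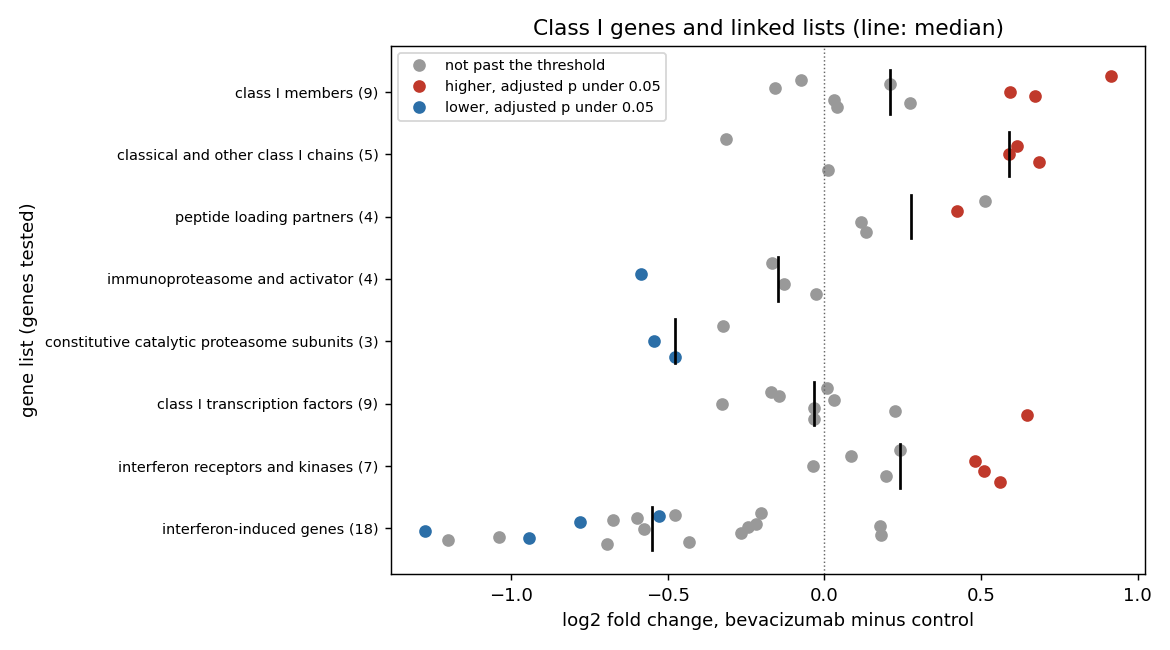
Log2 fold change (bevacizumab minus control) of each gene tested in the class I pathway and 7 linked lists, with the number tested in parentheses and the list median as a black line. The class I chains centre at 0.59 and the 9 pathway genes at 0.21, while constitutive proteasome subunits centre at -0.48 and interferon-induced genes at -0.55.

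Cells other than the tumour's could carry class I transcripts, so their markers were read beside these results. Of 9 leukocyte and antigen-presenting cell markers analysed 7 were under 4 on every array, among them the pan-leukocyte gene PTPRC, the T cell gene CD3E, the natural killer gene NKG7 and the monocyte gene CD14. The mean level of the list ran from 4.17 to 4.23 in bevacizumab tumours and from 4.10 to 4.19 in control tumours. The other 2 were the class II genes CD74, which differed by 0.66 (limma adjusted p = 0.0519), and HLA-DRA, which differed by -0.08 and averaged 9.84 in bevacizumab tumours and 9.92 in control tumours. Of 7 endothelial markers 5 were under 4 on every array, and PECAM1 and TEK differed by 0.18 and -0.03. Of 8 mural and fibroblast markers 2 fell, RGS5 and ACTA2, with differences of -2.85 and -1.79, and 6 did not pass, among them PDGFRB at 0.30, DCN at 0.26 and LUM at -0.62. Over all 10233 genes tested 1020 fell. The median of the 8 mural and fibroblast markers was 0.06, and the mean level of that list ran from 10.91 to 11.25 in bevacizumab tumours and from 11.56 to 11.65 in control tumours. The array is a human one and the hosts were mice, so marker levels under 4 do not show how many host cells were present. Host RNA was not told from tumour RNA, and the part of host cells in the class I values was not tested. Whether RGS5 and ACTA2 fell in tumour cells or in host cells was not tested either.

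**Figure D5:**
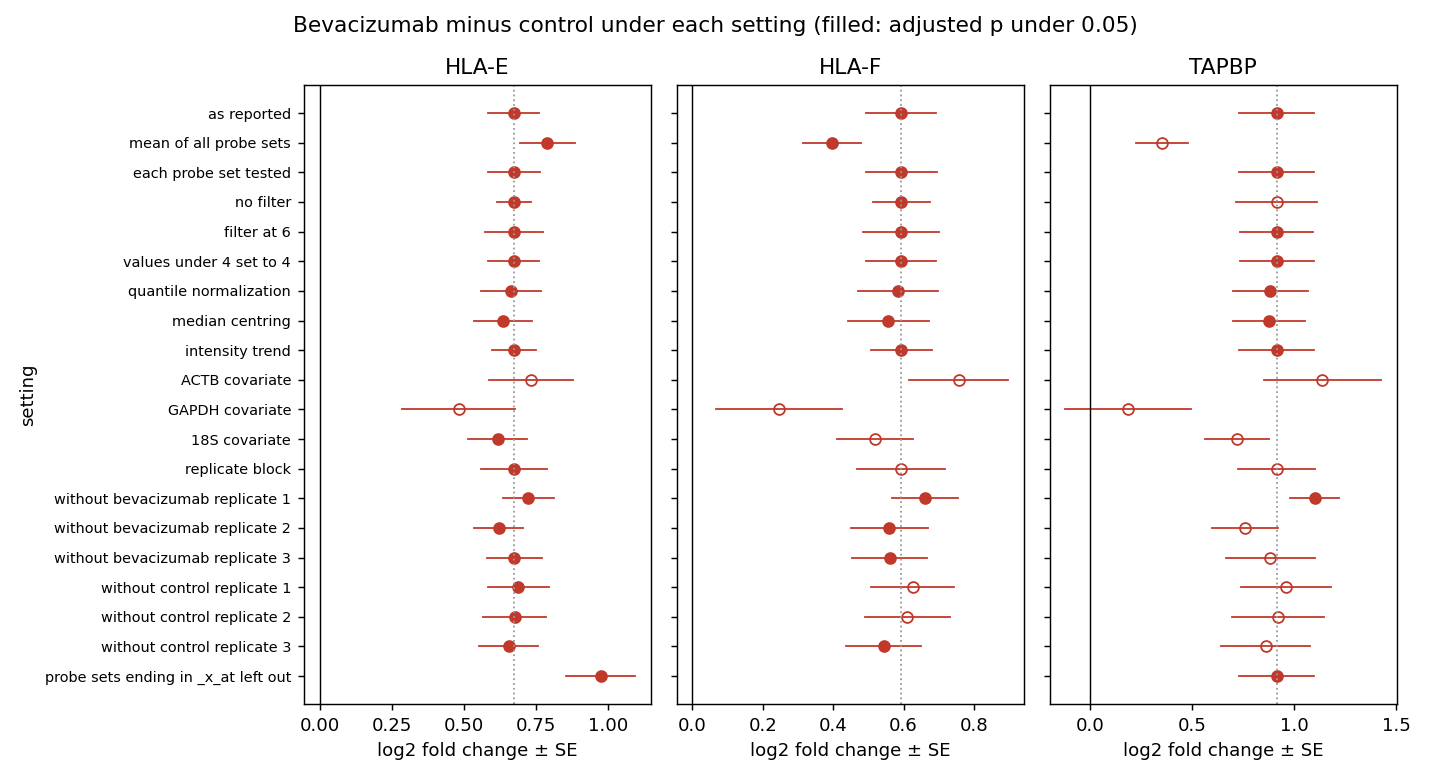
Log2 fold change ± SE of HLA-E, HLA-F and TAPBP (bevacizumab minus control) as reported and under each other setting, with filled points where the adjusted p was under 0.05. All values lie above 0, HLA-E is open under 2 settings, HLA-F under 6 and TAPBP under 11.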

How the data were processed

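Expression was measured on 6 one-colour arrays, 3 bevacizumab and 3 control. The deposited table holds log2 values, 1 per probe set and array. Per the submitters' processing notes, GCOS 1.1.1.052 and GCRMA (no version given) were used. No label states the scale; the range of 2.23 to 15.99 fits log2 intensities, and no scanner files were used here. Array medians lay between 2.49 and 2.51. The number of arrays limits the precision. Of 54675 probe sets 41097 had 1 gene symbol in the platform annotation, 41043 of them with an identifier matched to RefSeq.

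The probe set with the highest mean stood for each of 19775 genes, and 10233 with a mean of at least 4 were tested with limma 3.58.1 in R 4.3.3 (lmFit, eBayes, no covariate, two-sided, Benjamini-Hochberg). The same fit over 18475 single-gene probe sets gave values per probe set. A gene under 4 on all arrays of a group has a bound, computed against 4. Permutation tests were exact and two-sided. The fit and the motif search were tested on simulated data. The pathway genes, the other lists and the rule for named genes (list members past the threshold, up to 2 more with the smallest p, and the 3 genes most correlated with each pathway gene) were chosen with earlier results of these data known. Some list genes were named outside that rule, among them CALR, PSMB10, RFX5, JAK2 and DCN. RFXANK, IFNAR2 and COL1A2 had smaller limma p than RFX5, JAK2 and DCN of the same lists and were not named. Same-numbered arrays did not deviate together (r of -0.05, -0.01 and -0.05 over genes), so the numbers were not taken as pairs.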

Additional observations from a re-analysis of the deposited data

How the results depend on the processing

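The count of 1950 genes past the threshold became 598 with no filter, 24 with the ACTB covariate, 0 with the GAPDH covariate (limma, 1428 at an unadjusted p under 0.05) and 693 with the 18S covariate, and it ran from 558 to 2074 over the fits that left out 1 array (578, 558 and 897 without control 1, 2 or 3, and 1075 without bevacizumab 2). With no covariate 3664 genes had an unadjusted p under 0.05. The count of 3 pathway genes higher became 0 with the ACTB or GAPDH covariate and 1 with the 18S covariate, and it ran from 1 to 3 without 1 array, with HLA-E alone left without control 1 or control 2. None of the 9 was lower under any of the 19 alternatives run. Their median of 0.21 became 0.034 with the ACTB covariate and 0.34 with the GAPDH covariate, and it ran from 0.10 to 0.27 without 1 array. The replicate block, which pairs arrays by number although the labels give no shared source, left 904 genes past the threshold and 1 pathway gene, HLA-E.

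HLA-E, HLA-F and TAPBP kept their direction under every alternative that could be computed, and HLA-F could not be tested without _x_at probe sets, an alternative chosen after seeing the data. Signs turned only in genes that did not pass. TAP2 was 0.34 with the GAPDH and 0.049 with the 18S covariate, and without 1 array it ran from -0.17 to 0.046, above 0 without bevacizumab 2 (0.046) or control 3 (0.0035). NLRC5 was 0.42 with the GAPDH and 0.015 with the 18S covariate. ERAP2 was -0.050 as the mean of its probe sets, -0.0054 after median centring and -0.019 with the ACTB covariate, and without 1 array it ran from -0.0073 to 0.11, below 0 without bevacizumab 1 (-0.0073) or bevacizumab 2 (-0.0035). The cause of these changes was not tested. No value carries a depth, and probe sets under 4 were read only as dim.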
